A study of Rattus norvegicus with 8 samples.

Results

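The genes of the urea cycle and of amino acid breakdown were followed in liver RNA of weanling rats. The list held 35 genes grouped by their known function, drawn up with earlier results of these data known, and 32 of them had a named probe on the array. Of these, 30 were bright enough to be tested, among 11237 genes or unnamed probes tested in all. The study dosed Sprague-Dawley dams while they were pregnant and nursing and measured their male pups at 21 days of age. Control dams were given corn oil alone. Dams of the 0.5MAhR group, called the mixture group here, were given a mixture in corn oil at 0.5 mg/kg/day that held polychlorinated biphenyls, organochlorine pesticides and methyl mercury. It also carried agonists of the aryl hydrocarbon receptor (AhR), a ligand-activated transcription factor. These were non-ortho polychlorinated biphenyls, dibenzodioxins and dibenzofurans, and the total dioxin toxic equivalent was 6.3 ng/kg/day. All of these pups remained with their birth mothers.

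Each array carried liver RNA pooled from 2 pups, labelled with Cy5, beside a Cy3-labelled reference, the same on every array, made of RNA from 14 rat cell lines. There were 4 Control arrays, numbered 5 to 8, and 4 mixture arrays, numbered 1 to 4. A value is the log2 ratio of liver over reference for the same probe, and a difference is the mixture mean minus the Control mean on that scale. Whole liver was used, so fewer cells of a type and less RNA per cell cannot be told apart. The labels do not give the litters of the pooled pups, so the p-values reflect only how the pools varied.

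The urea cycle turns ammonia, which is toxic, into urea. It starts in hepatocyte mitochondria and ends in the cytosol, and it runs mainly in periportal hepatocytes, where blood enters the lobule. Ammonia that passes them is taken up by a thin layer of pericentral hepatocytes around the central vein, which make glutamine with glutamine synthetase. The enzymes that break down amino acids deliver the nitrogen for urea and the carbon for glucose, and weaning changes the amino acid supply of the liver.

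The 8 arrays lay on 1 slide in 2 columns of positions, each with 2 Control and 2 mixture arrays, and the columns differed more than the groups. Across genes, r was 0.981 to 0.990 for pairs of arrays within a column and 0.938 to 0.962 for pairs across columns. At an adjusted p under 0.05, 54.6% of all tested genes differed by column, as did 21 of the 30 measured members, whose column 2 minus column 1 differences ran from -1.07 to 0.81. Slide column was therefore fitted in every test, and for many results the group difference is also given within each column. Control arrays 5 to 8 and mixture arrays 1 to 4 lay in slide rows 1 to 4 in turn. In column 1, rows 1 and 3 held Control arrays and rows 2 and 4 mixture arrays. Column 2 was the reverse. Within a column, a group difference therefore cannot be told apart from a difference between rows. Median Cy5 intensity rose from row 1 to row 4, from 83 to 93 on Control arrays and from 81 to 94 on mixture arrays. The 6 hepatocyte markers (Alb, Ttr, Apoa1, Tf, Serpina1 and Fgb) were well above background on all 8 arrays. Cyp1a1, a P450 that AhR agonists induce, rose in the mixture group from 0.90 ± 0.53 to 4.93 ± 0.59 (SD, n = 4), a difference of 4.04 (adjusted p = 0.00261 in limma, and 0.126 to 0.188 with the scanner's processed signals, with slide row as block or in column 2 alone).

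No member passed an adjusted p of 0.05 in limma, where 0.0445% of all tested genes did (0.00890% without slide column in the fit). The adjusted p of the 30 members lay between 0.425 and 0.988. The signs of their differences nevertheless ran mostly one way. In the mixture group 28 of the 30 were lower, or 93.3%, against 52.8% of all tested genes, and the 2 that were higher were Glul and Oat, the pericentral genes of the list. The median difference of the members was -0.16, with -0.09 in slide column 1 and -0.24 in column 2, while that of all tested genes was -0.01. The sign was lower in both columns for 22 members. At an unadjusted p under 0.05 there were 6 members (Ass1, Gls2, Prodh2, Gstz1, Cps1 and Glud1), all lower, where 2.79% of all tested genes were lower and 3.46% higher at that level. Without slide column in the fit, 0 members had an unadjusted p under 0.05, as 1.50% of all tested genes did. The count was also 0 with slide row as block, 1 with median centring or in column 1 alone, and 2 without Control array 8.

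Beside these, the 6 hepatocyte markers were all lower, at -0.29 to -0.09, with a median of -0.11 (-0.03 in column 1, where 3 of 6 were lower, and -0.29 in column 2), and only Fgb had an unadjusted p under 0.05. The marker median was -0.03 with median centring, and in Cy5 alone it was 0.000373 with 3 of 6 lower. Among the 733 named genes outside the list with a Control ratio above 2 on the log2 scale, 58.8% were lower, with a median of -0.04. These genes were picked on the same Control values that enter the difference, which by itself favours lower differences. The 5 Kupffer cell and macrophage markers were all higher, at 0.01 to 0.37, and 3 of 4 stellate and fibroblast markers were higher, at -0.09 to 0.19. In column 2 the direction turned, with 3 of 5 Kupffer cell markers lower (median -0.01, against 0.19 in column 1) and 3 of 4 stellate markers lower (median -0.08, against 0.25). Of the 2 measured neutrophil markers, both were lower, S100a8 at -0.16 and S100a9 at -0.40 (median -0.14 in column 1 and -0.42 in column 2). Of the 3 cholangiocyte, 3 endothelial and 2 erythroid markers measured, 2, 2 and 1 were higher, within -0.04 to 0.15, and the 1 measured lymphocyte marker, Ptprc, was higher at 0.08. Adgre1, a macrophage marker, and Des, a stellate cell marker, had an unadjusted p under 0.05. None of these markers passed the threshold, and their part in the differences of the members was not tested. In Cy3, the reference channel, the group differences of the members lay between -0.06 and 0.05 and 0 had an unadjusted p under 0.05, while 0.00890% of all tested genes passed the adjusted threshold.

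**Figure D1:**
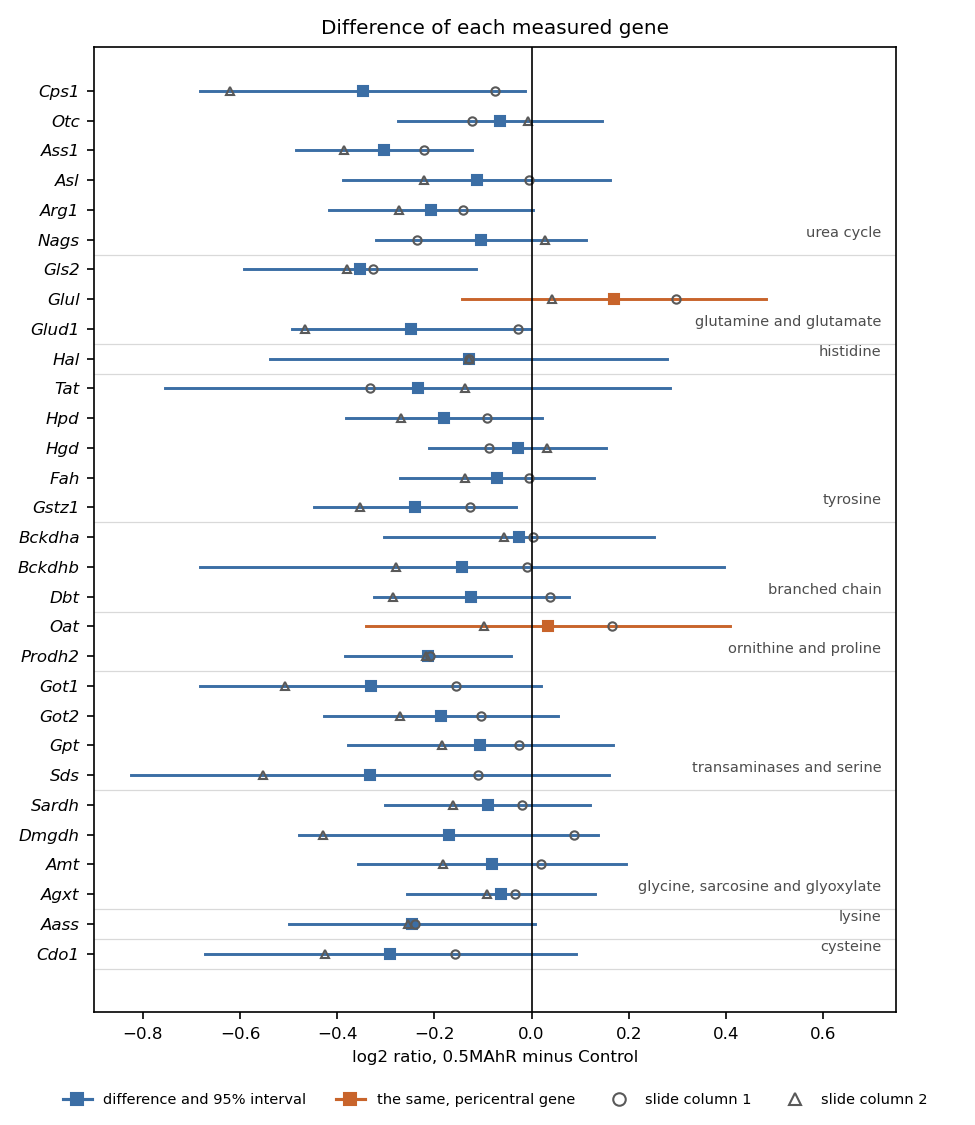
Difference in log2 ratio, mixture (0.5MAhR) minus Control, for the 30 measured genes (horizontal axis), grouped by pathway. Squares and lines are the estimate from 8 arrays with its 95% interval, with slide column fitted, and open symbols are the differences within each slide column. All squares but those of Glul and Oat lie left of 0.

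Of the urea cycle enzymes, 6 were measured and all 6 were lower in the mixture group, with a median of -0.16 (-0.13 in column 1 and -0.25 in column 2). Cps1 makes carbamoyl phosphate from ammonia, the first and rate-controlling step. Its log2 ratio was 3.32, 3.20, 3.12 and 3.65 on Control arrays 5 to 8, and 2.60, 3.09, 3.01 and 3.21 on mixture arrays 1 to 4. The highest mixture array lay above the 2 lowest Control arrays, so the groups overlapped. The difference was -0.35 (SE 0.15, 95% interval -0.68 to -0.01, adjusted p = 0.780). It was -0.62 in slide column 2 and -0.08 in column 1. In each slide row the mixture array lay below the Control array. How many of all tested genes show that pattern was not counted, and with slide row as block 0 members had an unadjusted p under 0.05 in limma. The difference changed without single arrays. It was -0.20 without Control array 8 and -0.21 without mixture array 1.

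Ass1 joins citrulline to aspartate, which brings in the second nitrogen of urea. It had log2 ratios of 4.37, 3.44, 4.46 and 3.43 on Control arrays 5 to 8, and 3.13, 4.31, 2.96 and 4.08 on mixture arrays 1 to 4. Over all 8 arrays the groups overlapped, with a column 2 minus column 1 difference of -1.07, but within each column both mixture arrays lay below both Control arrays. The difference was -0.30 (SE 0.08, 95% interval -0.48 to -0.12), or 0.81 times the Control level. Its adjusted p of 0.425 was the smallest of the members.

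Otc, which makes citrulline in the mitochondrion, had log2 ratios of 6.44, 6.88, 6.46 and 6.65 on Control and 6.78, 6.14, 6.73 and 6.51 on mixture arrays. The groups overlapped over most of their range, and the difference was -0.07 (SE 0.09, 95% interval -0.28 to 0.14, adjusted p = 0.940). Asl splits argininosuccinate into arginine and fumarate. It read 3.50, 4.61, 3.40 and 4.10 on Control and 4.30, 3.38, 3.97 and 3.51 on mixture arrays, with a difference of -0.11 (SE 0.12, 95% interval -0.39 to 0.16, adjusted p = 0.926). Both enzymes showed a spread set by the slide columns, with column 2 higher, and no separation of the groups within both columns.

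Arg1 releases urea from arginine. It read 7.63, 8.41, 7.73 and 8.22 on Control and 8.18, 7.67, 7.91 and 7.41 on mixture arrays. The groups overlapped within slide column 1, and in column 2 both mixture arrays lay below both Control arrays. The difference was -0.21 (SE 0.09, 95% interval -0.42 to 0.00383, adjusted p = 0.810). It was -0.14 in column 1 and -0.27 in column 2. Nags, which makes the N-acetylglutamate that Cps1 needs as activator, differed by -0.10 (-0.24 in column 1 and 0.03 in column 2). Slc25a15, the mitochondrial ornithine carrier, could not be tested, being well above background on 0 of 8 arrays. Slc25a13, the aspartate and glutamate carrier citrin, had no named probe here.

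Glutamine is handled in opposite ways at the ends of the lobule. Gls2, the liver glutaminase of periportal cells, frees ammonia for the cycle. It read 4.07, 3.20, 4.10 and 3.28 on Control arrays 5 to 8, and 3.13, 3.78, 2.59 and 3.73 on mixture arrays 1 to 4. As with Ass1, column 2 was lower, and within each column both mixture arrays lay below both Control arrays. The difference was -0.35 (SE 0.11, 95% interval -0.59 to -0.11, adjusted p = 0.525), near the same in column 1 (-0.33) and column 2 (-0.38). Glud1, glutamate dehydrogenase, which frees ammonia from glutamate, differed by -0.25 (SE 0.11, adjusted p = 0.796), mostly in column 2 (-0.47, against -0.03 in column 1), and by -0.16 without mixture array 1.

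Glul, glutamine synthetase, is confined to the last hepatocytes before the central vein. It read 0.48, 0.65, 0.84 and 0.96 on Control and 0.64, 0.76, 1.05 and 1.16 on mixture arrays. The 2 highest values were on mixture arrays and the lowest on a Control array, with the rest interleaved. In both groups the values rose from slide row 1 to row 4, and in each row the mixture array lay above the Control array. How many of all tested genes show such a pattern was not counted. With slide row as block, 0 members had an unadjusted p under 0.05 in limma. The difference was 0.17 (SE 0.14, 95% interval -0.14 to 0.48, adjusted p = 0.909). It was 0.30 in column 1 and 0.04 in column 2, and 0.06 without mixture array 4, 0.07 without Control array 5 and 0.28 without mixture array 1. Oat, ornithine aminotransferase, also pericentral, read 2.10, 1.88, 2.04 and 2.14 on Control and 2.21, 1.91, 1.61 and 2.57 on mixture arrays. The mixture arrays held both the highest and the lowest value, and the difference of 0.03 (SE 0.17, 95% interval -0.34 to 0.41, adjusted p = 0.988) was 0.17 in column 1 and -0.10 in column 2.

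**Figure D2:**
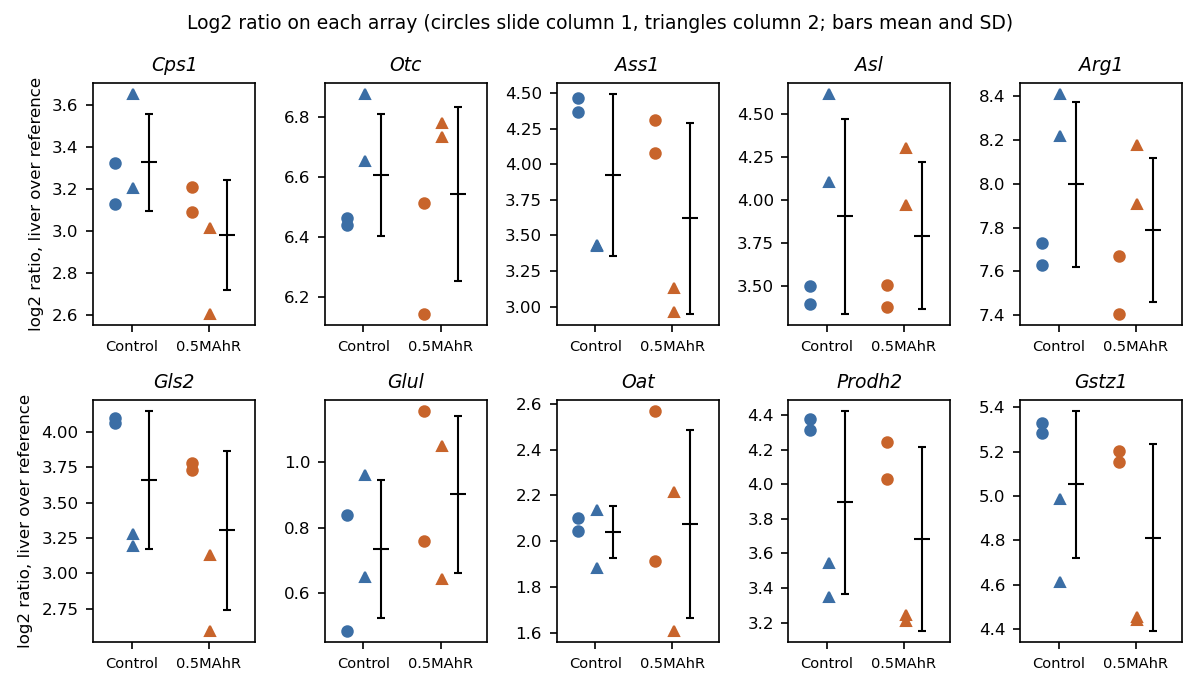
Log2 ratio of liver over reference (vertical axis, a separate scale in each panel) on each of the 4 Control and 4 mixture (0.5MAhR) arrays for 10 genes. Circles are arrays of slide column 1 and triangles of column 2, and black bars are the mean and SD of the 4 arrays. In Ass1, Gls2, Prodh2 and Gstz1 the mixture arrays lie below the Control arrays of the same column.

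The promoters of Ass1 and Gls2, the members with the smallest p-values, and of Glul, which was higher, are shown to set their sequences beside the exposure to AhR agonists. They are RefSeq sequences of build GRCr8, from 250 bases before to 50 bases after the first listed start of each gene, and capitals mark GCGTG, the core of the AhR response element, found on either strand (as CACGC on the other).
Ass1, chr3:35149480-35149779, plus strand: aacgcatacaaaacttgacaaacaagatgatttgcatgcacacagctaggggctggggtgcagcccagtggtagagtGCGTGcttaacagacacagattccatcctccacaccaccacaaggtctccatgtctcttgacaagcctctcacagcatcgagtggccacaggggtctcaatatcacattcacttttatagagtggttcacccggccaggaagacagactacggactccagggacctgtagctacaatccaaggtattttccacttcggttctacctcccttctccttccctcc
Gls2, chr7:1201629-1201928, plus strand: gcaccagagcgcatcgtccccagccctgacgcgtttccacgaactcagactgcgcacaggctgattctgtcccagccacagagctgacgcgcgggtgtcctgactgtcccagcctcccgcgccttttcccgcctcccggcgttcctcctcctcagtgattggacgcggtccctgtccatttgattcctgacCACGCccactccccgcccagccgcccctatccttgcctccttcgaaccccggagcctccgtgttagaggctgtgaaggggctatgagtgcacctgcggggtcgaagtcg
Glul, chr13:68519250-68519549, plus strand: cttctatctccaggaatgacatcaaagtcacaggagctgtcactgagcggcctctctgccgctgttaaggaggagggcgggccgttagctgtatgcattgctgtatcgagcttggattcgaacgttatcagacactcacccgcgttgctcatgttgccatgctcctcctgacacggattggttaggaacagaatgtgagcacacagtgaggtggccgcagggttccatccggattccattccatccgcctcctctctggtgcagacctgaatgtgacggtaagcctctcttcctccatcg
Ass1 and Gls2 each held 1 such match and Glul held 0. A promoter was found for 28 of the 35 genes, and 11 of these 28 (39.3%) held the letters, against 31.1% of the 27457 promoters in the table. A match is a description of letters in this window only.

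By their known zones, 12 periportal members were set against Glul and Oat. Of the 12, 11 were measured (Uroc1 had no named probe) and all 11 were lower in the mixture group in each slide column. Some of these values were near 0, such as Asl at -0.00539 in column 1 and Otc at -0.00783 in column 2. Without Control array 6, 9 of the 11 were lower, and 10 without mixture array 2 or with processed signals. The median difference of the 11 was -0.21 (-0.12 in column 1 and -0.27 in column 2), against 0.10 for the mean of Glul and Oat (0.23 and -0.03). The 17 measured members assigned to neither zone were also all lower, with a median of -0.17, so the lower values were not limited to the periportal genes. Set against the Control mean of the same column, the periportal median was -0.10, -0.13, -0.41 and -0.02 on mixture arrays 1 to 4, and the mean of Glul and Oat was 0.02, -0.03, -0.08 and 0.49. On each mixture array the pericentral value lay above the periportal one, with periportal minus pericentral values of -0.12, -0.10, -0.33 and -0.51 in turn. The 2 Control arrays in a column mirror each other by construction. They ran from -0.03 to 0.03 in column 1 and from -0.19 to 0.19 in column 2. Mixture arrays 1 and 2 lay within the range of all Control arrays. Against the 2 Control arrays of its own column, mixture array 2, in column 1, lay outside. The periportal median was -0.11 without mixture array 3. The pericentral value rested on mixture array 4, without which it was -0.03, and it ranged up to 0.18 without other single arrays.

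**Figure D3:**
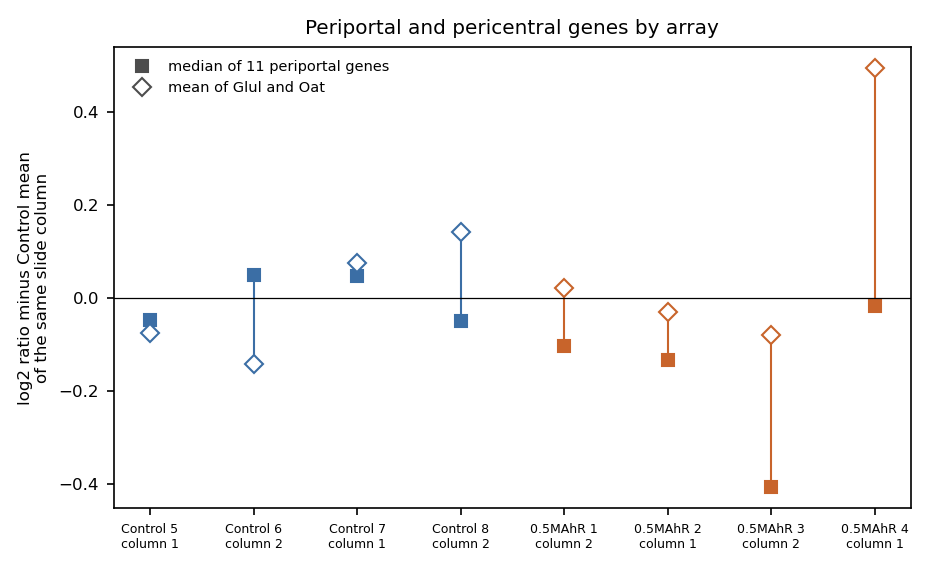
Median of 11 periportal genes (squares) and mean of Glul and Oat (diamonds) on each array, as log2 ratio minus the Control mean of the same slide column (vertical axis). On the 4 mixture (0.5MAhR) arrays the diamond lies above the square, with the widest gap on arrays 3 and 4.

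Zonation genes outside the list were read in the same way. Rhbg, an ammonium transporter of pericentral hepatocytes, read 2.40, 2.65, 2.57 and 2.65 on Control arrays and 2.71, 2.85, 3.29 and 3.45 on mixture arrays. The lowest mixture array was above the highest Control array, a pattern that 0.810% of all tested genes showed. The difference was 0.51 (SE 0.16, adjusted p = 0.574). Columns 1 and 2 gave 0.67 and 0.35. Of 12 measured pericentral genes outside the list 7 were higher and 5 lower, with a median of 0.04. Their sign turned between columns, with a median of 0.11 and 2 of 12 lower in column 1, and -0.09 and 7 of 12 lower in column 2. Set against the Control mean of the same column, their median was -0.18, -0.06, 0.02 and 0.29 on mixture arrays 1 to 4. It thus rose with slide row, and column and row cannot be told apart in the turn of sign. The smallest p among the lower ones was that of Axin2, a Wnt target, at -0.18. Gulo, the last enzyme of vitamin C synthesis, was at 0.13. Of 9 measured periportal genes outside the list 7 were lower, with a median of -0.11 (-0.02 in column 1 and -0.18 in column 2). They included Fbp1, a gluconeogenic phosphatase, at -0.21 and Hsd17b13, a lipid droplet protein, at -0.19, while the immunoglobulin carrier Pigr was higher at 0.40. None passed the threshold.

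Tyrosine breakdown was lower in all 5 measured enzymes, with a median of -0.18, which was -0.01 without Control array 8 and -0.11 without mixture array 2. Gstz1, which isomerises maleylacetoacetate in this pathway, read 5.28, 4.61, 5.33 and 4.99 on Control and 4.44, 5.20, 4.45 and 5.15 on mixture arrays. Within each column both mixture arrays lay below both Control arrays. Its difference was -0.24 (SE 0.09, 95% interval -0.45 to -0.03, adjusted p = 0.724), and -0.14 without Control array 8. Hpd, the dioxygenase that makes homogentisate, differed by -0.18 (SE 0.09), Fah, which closes the pathway, by -0.07 and Hgd, which opens the homogentisate ring, by -0.03.

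Tat, tyrosine aminotransferase, starts tyrosine breakdown and responds to glucocorticoids and feeding. It read 2.99, 1.61, 3.00 and 2.86 on Control and 1.98, 2.41, 2.21 and 2.91 on mixture arrays. Control array 6 lay far below the other Control arrays and below all mixture arrays, and the difference of -0.23 had an SE of 0.23. It was -0.50 without Control array 6 and -0.00426 without Control array 8. Hal, histidase, which removes ammonia from histidine, differed by -0.13 (SE 0.18).

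Prodh2, which oxidises hydroxyproline, read 4.38, 3.35, 4.31 and 3.54 on Control and 3.24, 4.03, 3.21 and 4.24 on mixture arrays. The column 2 minus column 1 difference was -0.90, and within each column the mixture arrays were below the Control arrays. The difference was -0.21 (SE 0.08, 95% interval -0.38 to -0.04, adjusted p = 0.668), the same in column 1 (-0.21) and column 2 (-0.22). With Ass1, Gls2 and Gstz1 it made 4 members that were separate and lower within both columns, a pattern shown by 3.40% of all tested genes. No member had groups that failed to overlap over all 8 arrays, where 0.543% of all tested genes were lower without overlap.

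The aminotransferases and serine dehydratase were lower in 4 of 4, with a median of -0.26 (-0.11 in column 1 and -0.39 in column 2, and -0.16 without mixture array 3). Got1, the cytosolic aspartate aminotransferase, differed by -0.33 (SE 0.16), its mitochondrial partner Got2 by -0.19 (SE 0.11), and Gpt, alanine aminotransferase, by -0.11 (SE 0.12). Sds, which makes pyruvate from serine, differed by -0.33 (SE 0.22). Its ratio was 4.97, 5.10, 5.76 and 5.00 on Control and 4.95, 5.13, 4.05 and 5.38 on mixture arrays, with Control array 7 high and mixture array 3 low, and the difference was -0.11 without mixture array 3.

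The branched-chain ketoacid dehydrogenase, which commits leucine, isoleucine and valine to oxidation, had all 3 listed subunits measured. Bckdha differed by -0.03 (SE 0.12), Bckdhb by -0.14 (SE 0.24) and Dbt by -0.12 (SE 0.09). These were among the members with no steady sign, since in slide column 1 only Bckdhb was lower, at -0.01.

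In glycine and sarcosine breakdown 4 of 4 measured genes were lower, by small amounts. Dmgdh and Sardh, which demethylate dimethylglycine and sarcosine, differed by -0.17 (SE 0.14) and -0.09 (SE 0.09). Amt, of the glycine cleavage system, differed by -0.08 (SE 0.12), and Agxt, which detoxifies glyoxylate, by -0.06 (SE 0.09). Gldc had no named probe here.

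Aass, the first enzyme of lysine breakdown, differed by -0.25 (SE 0.11), with -0.24 in column 1 and -0.25 in column 2. Cdo1, cysteine dioxygenase, differed by -0.29 (SE 0.17). Csad, which makes hypotaurine from its product, was well above background on 0 of 8 arrays and was not tested. Aass and Amt were well above background on 3 of the 4 mixture arrays and all Control arrays, and the other 28 measured members on all 8 arrays.

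Further genes of amino acid transport and breakdown, 73 in number and not among the members, were less one-sided. Of 56 measured, 35 were lower and 21 higher, with a median of -0.04 (-0.01 in column 1 and -0.08 in column 2), and 0 passed the threshold, with 6 at an unadjusted p under 0.05 in limma. The lower ones with the smallest p were Aspg, an asparaginase, at -0.43 (SE 0.09, adjusted p = 0.307), Slc38a4, an amino acid carrier of hepatocytes, at -0.28 (SE 0.07, adjusted p = 0.395), and Sdsl, a relative of Sds, at -0.29 (SE 0.07, adjusted p = 0.396). The higher ones included Gch1, which starts synthesis of the cofactor of phenylalanine hydroxylase, at 0.26, and Asns, asparagine synthetase, at 0.19. Among 9 measured regulators of these genes 4 were lower and 5 higher. The smallest p were those of the mitochondrial deacylases Sirt3 at -0.16 and Sirt5 at 0.10.

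**Figure D4:**
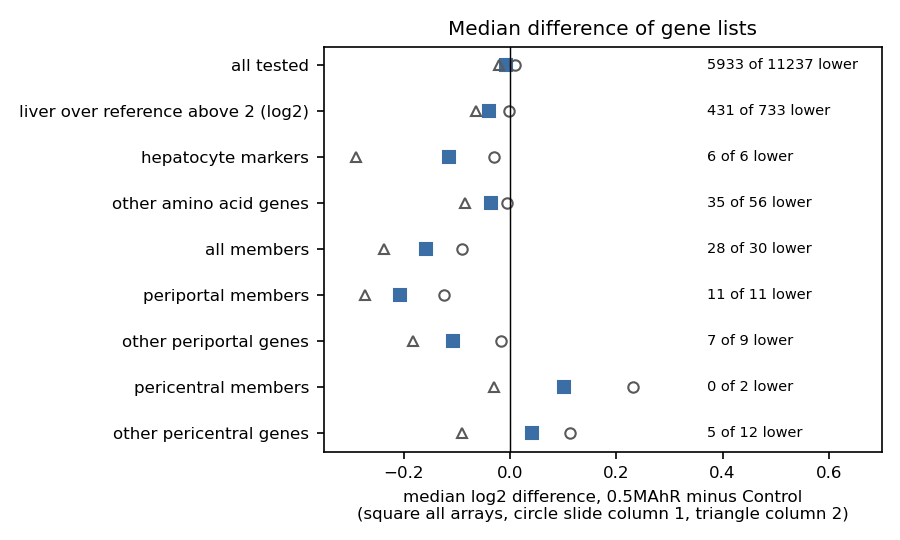
Median log2 difference, mixture (0.5MAhR) minus Control (horizontal axis), of gene lists, over all arrays (squares) and within slide columns 1 (circles) and 2 (triangles), with the number of genes lower. Over all arrays, the members' median of -0.16 lies left of those of all tested genes (-0.01), other amino acid genes (-0.04) and hepatocyte markers (-0.11). In column 2 the hepatocyte markers (-0.29) lie left of the members (-0.24). Genes with liver over reference above 2 were picked on the same Control values that enter the difference.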

How the data were processed

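Two-colour Agilent arrays of 8 liver RNA pools were used, and the other arrays of the 72 in the study were not analysed here. Spot intensity values come, per the file headers, from the authors' run of Feature Extraction 11.0.1.1. Median foreground and background intensity of each channel were taken from the deposited files. The deposited value table holds log2 ratios of Cy5 over Cy3. Set against loess log2 ratios without background correction it gave r of 0.997 to 0.998, which settles its scale and direction, while its making and centring (column medians of -0.0389 to -0.0326) are not given in the sources used here.

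Normexp (offset 50) and within-array loess with control spots at weight 0 were run in limma 3.58.1 under R 4.3.3. Spots marked as outliers were dropped, and the spots of each probe averaged. Of 30367 probes 18005 were named by accession through RefSeq (GRCr8, names only). Each measured member had 1 named probe. A probe was tested if well above background in Cy5 (at least 50% of its spots) on at least 3 of 4 arrays of a group, giving 12172 probes, the brightest per gene representing it. In Cy5, the share of spots well above background ran from 42.9% to 49.2%, with 0 saturated. The number of arrays limits precision.

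Groups were compared with lmFit and eBayes with slide column (here the first digit of the array position, with slide row the second) as a term, two-sided, with Benjamini-Hochberg adjustment over all tested genes and a threshold of 0.05. The fit was tested on simulated data whose set differences were larger than that of any member, so the test does not bear on differences of the members' size. Cy3 was tested alone after normexp and quantile normalisation. Named genes were Cps1, Otc, Ass1, Asl, Arg1, Glul and Oat, the 5 members with the smallest p in each direction, any past the threshold or without overlap, and those with the smallest p of each other list. Members and lists were chosen with earlier results of these data known, and so was the choice to fit slide column, because of the differences between columns. All arrays shared 1 dye orientation, so dye bias was not measured.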

Additional observations from a re-analysis of the deposited data

Results flagged for a closer look

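Among 60 groups of 4 arrays, 2 held a single array far from the other 3. Chance gives such an array in about 5% of groups whose arrays are drawn alike. Each group here mixed 2 slide columns that differed, so that rate need not hold. Tat read 1.61 on Control array 6, against 2.86 to 3.00 on the other Control arrays. Sds read 5.76 on Control array 7, against 4.97 to 5.10 on the others.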

How the results depend on the processing

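The number of members past the threshold was 0 under all 14 other settings and without each of the 8 arrays in turn. Between 24 and 28 members were lower under the other settings and between 25 and 29 without single arrays, with 28 to 32 members tested. Their median difference lay between -0.24 and -0.09 under the settings and between -0.21 and -0.13 without single arrays. In Cy5 alone the members' median was -0.14. Over all genes, 5 passed the threshold, all higher. The count fell to 0 with slide row as block, with processed signals and in slide column 2 only, and it was 1 with median centring and with no slide block, 2 in slide column 1 only, 3 with eBayes with trend and robust, and 14 in Cy5 alone. The count ran from 1 to 11 without single arrays (11 without mixture array 2, 8 without Control array 7, 1 without Control array 5 or mixture array 3 or 4, and 2 without the others). With median centring 41.8% of all genes were lower.

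Of 658 member values under these alternatives, 633 kept their direction, and the cause of the 25 reversals was not tested. With processed signals Otc was at 0.0731 and Cdo1 at 0.0868. With median centring Hgd was at 0.0102 and Bckdha at 0.0132. In slide column 1 only, Bckdha was at 0.00357, Dbt at 0.0375, Dmgdh at 0.0875 and Amt at 0.0191, and in column 2 only, Nags was at 0.0271, Hgd at 0.0320 and Oat at -0.0987. Without single arrays, Otc ran from -0.128 to 0.0201, Asl from -0.193 to 0.0102, Hal from -0.292 to 0.0326, Hgd from -0.0749 to 0.0423, Fah from -0.132 to 0.0173, Bckdha from -0.106 to 0.0655, Bckdhb from -0.410 to 0.0684, Oat from -0.123 to 0.182 and Amt from -0.173 to 0.0505. Cyp1a1 had an adjusted p of 0.126 with processed signals, 0.170 with slide row as block and 0.188 in column 2 only. Each slide row held 1 array of each group, so the fit with slide row as block pairs arrays by position. By replicate number, no paired analysis was possible because Control pools (5 to 8) and mixture pools (1 to 4) share none.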
